A study of Mustela putorius furo with 8 samples.

Results

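WT cluster 3 was a group of wild-type (WT) ferret pancreatic ductal cells whose deposited class name is centroacinar. Its members were every cell that the authors' cell table placed in the WT cluster numbered 3, which gave 1044 of 21600 WT cells and of 32945 cells in the whole series. The cultures came from newborn ferrets of 1 to 3 days, whose duct cells were passaged 10 times and then polarized at an air-liquid interface as pancreatic ductal epithelium (PDE). Polarized WT cultures were taken on day 2, 5, 7 and 9, with 1 droplet library for each day, and the study states that 3 WT donors were pooled. The series also holds cultures in which CFTR was knocked out, and those were not used here. The 4 WT libraries share genotype, medium and passage, carry no treatment, and differ in the day alone as far as the labels say. No cell was assigned to a donor, so no value below has an error between animals. The clusters were drawn from the same genes, so differences between the cluster and other cells are descriptions with no test.

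Centroacinar cells sit where the smallest ducts of the pancreas meet the acini, and they are known for duct-like features and for a capacity to give rise to other pancreatic cells. Their usual markers include Notch targets such as HES1, the duct regulator SOX9 and aldehyde dehydrogenases. In the study the class was named from correlation with published pancreas references, and KRT7, PROM1 and S100A6 are among the genes tied to it. Polarized duct cells also make membrane mucins, secreted defence proteins and the transporters that move chloride, bicarbonate and sodium, and those genes organise the description that follows.

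The cluster was almost entirely a group of day 9. None of 6224 WT cells on day 2 belonged to it, which allows a share of up to 0.0482% by the limit of 3 counts of the total. On day 5 it held 50 of 5326 cells, or 0.939% (0.698 to 1.24), and on day 7 it held 29 of 4634 cells, or 0.626% (0.420 to 0.898). On day 9 it held 965 of 5416 cells, or 17.8% (16.8 to 18.9). The intervals in brackets are exact Clopper-Pearson intervals at 95% and cover counting error only. Of all members, 92.4% came from the day 9 library, so the cluster may reflect that library as well as a cell state, and the design cannot tell these apart. Among cells of the centroacinar class it made up 6.60% (4.94 to 8.60) on day 5, 3.71% (2.50 to 5.29) on day 7 and 40.9% (38.9 to 42.9) on day 9.

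**Figure D1:**
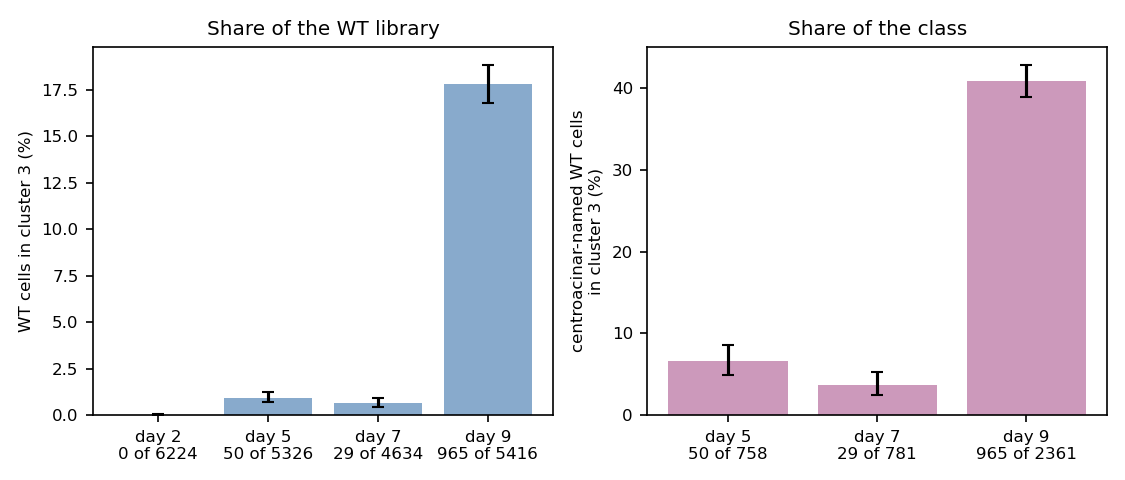
Share of WT cells in cluster 3 by day, as a percent of all retained WT cells of the library (left) and of WT cells with the class name centroacinar (right; day 2 held no member). Bars are shares, error bars are exact 95% binomial intervals, and the numbers under the bars are cells. The cluster makes up 0.939% of the day 5 library and 17.8% of the day 9 library.

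Median depth was alike in members and other cells, the spread of depth was narrower in members, and mitochondrial RNA was higher. The median member held 16880, 14317 and 16426 unique molecular identifiers (UMIs, counts of captured transcripts) on day 5, 7 and 9, against 16861, 15906 and 14584 in the other WT cells. The 5th to 95th percentiles on day 9 were 9451 to 23452 UMIs in members and 4388 to 28134 in the others. The median mitochondrial share was 10.5%, 16.3% and 11.8% of UMIs in members, and 6.61%, 10.7% and 9.81% in the other WT cells. Members were thus above the rest of their library in mitochondrial share on each day that held any. Over 10% mitochondrial UMIs were found in 32 of 50 members on day 5, in all 29 on day 7 and in 729 of 965 on day 9. Restricted to cells of at least 3000 UMIs and at most 10% mitochondrial UMIs, the cluster made up 0.388% of day 5 and 9.64% of day 9, and no member of day 7 was left. Each pair of WT libraries shared between 6 and 14 barcodes. Of those that day 9 shared with day 7, day 5 and day 2, a member carried 3, 2 and 1, in either library of the pair. Members summed to 840962, 458794 and 15845723 UMIs on day 5, 7 and 9, so values of day 5 and 7 are far less precise than those of day 9.

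Levels below are CPM, UMIs per 1000000 UMIs after summing all cells of a group within a library. Differences are log2(CPM + 1) of the cluster minus that of the other WT cells of the same library, which understates changes of genes near 1 CPM. Genes of at least 10 CPM in either sum were compared, and a gene was called higher or lower where the difference was at least 1, or 2-fold. A gene under 10 CPM in 1 of the 2 groups passes that filter only through the other group. A count of higher or lower genes within a list is therefore a description of those that passed. Days with at least 50 members, day 5 and day 9, were used for ranking, and day 7 is shown as values. The median gene differed by -0.14 on day 5 and -0.15 on day 9, and trimmed mean (TMM) scaling would add 0.08 and 0.18 to every difference on those days. Differences of that size are therefore not read as a direction.

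The genes tied to the class did not move together in the cluster. PROM1, a membrane glycoprotein of apical protrusions also known as CD133, had 598, 789 and 757 CPM in the cluster on day 5, 7 and 9, against 127, 214 and 248 CPM in the other WT cells. The cluster was higher on each day, with a ratio of 4.72 (4.31 to 5.16) on day 5 and 3.06 (2.99 to 3.13) on day 9. S100A6, a small calcium-binding protein, had 56913, 45434 and 66123 CPM against 29038, 27126 and 41640 CPM. S100A4, a relative of S100A6, had 589, 314 and 639 CPM against 159, 125 and 205 CPM. KRT7, a keratin of simple duct epithelium, went the other way, with 1458, 1336 and 1386 CPM in the cluster against 2782, 2221 and 2748 CPM in the other cells. Its ratio was 0.524 (0.495 to 0.554) on day 5 and 0.504 (0.497 to 0.511) on day 9, just short of the 2-fold call. WSB1, a substrate adaptor of a ubiquitin ligase, had 71.3, 78.5 and 43.9 CPM against 71.8, 69.9 and 93.7 CPM. Of the 5 class markers in the matrix, 2 were called higher on day 5, where 6.39% of all genes compared were, and 2 on day 9, where 1.56% were. None was called lower on day 5 and 1 was called lower on day 9, where 7.9% of all genes were.

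Genes tied to centroacinar progenitors were mostly called higher in the cluster on day 5. Of the 11 such genes in the matrix, 10 were called higher on day 5, where 6.39% of 8211 genes were, and 2 on day 9, where 1.56% of 7901 genes were. Their median difference was 1.65 on day 5 and 0.83 on day 9. The day 9 median was 1.41 among cells of at least 3000 UMIs and at most 10% mitochondrial UMIs. Against the other centroacinar cells it was 0.43, with none of the 11 called, where 0.26% of all genes were higher and 3.24% lower. On day 5 that comparison had 6 of the 11 higher and none lower, beside 2.74% and 5.68% of all genes. The day 5 median there was 1.27. The study characterizes its progenitor clusters, from the same libraries, by the progenitor genes, so those genes are not independent evidence of the name. Among genes known from the adult centroacinar cell, ALDH1A1, an aldehyde dehydrogenase of retinoid metabolism, had 390.0 and 501 CPM against 193 and 270.3 CPM on day 5 and 9. HES1, a Notch target, had 342 and 801 CPM against 734 and 1142 CPM, and SOX9 had 4.76 and 9.28 CPM against 6.65 and 11.2 CPM. The adult centroacinar list had 1 of 3 genes higher and 1 lower on day 5, 0 of 4 called on day 9, and medians of -0.78 and -0.38. Over all genes, 6.39% were higher and 13.2% lower on day 5, and 1.56% and 7.9% on day 9. Of the class markers, S100A6 stayed below 2-fold and differed from the other centroacinar cells by 0.11 and 0.29, WSB1 was called lower on day 9 and KRT7 was below the other cells, so the markers were divided on the deposited name. S100A6 on day 5 and WSB1 on day 9 lay near 2-fold, so whether they were called depends on scaling. The median of the class markers on day 5 was 0.971, and 1.055 with TMM scaling. The group is called cluster 3 below.

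The RefSeq gene table of the ferret assembly ASM1176430v1.1 places PROM1 at 22374567 to 22509241, S100A6 at 6400867 to 6403060, S100A4 at 6393712 to 6395896 and KRT7 at 3657953 to 3671995. That table names no chromosome for these genes, and all 4 are protein coding. The authors counted reads with a different, improved annotation of the same assembly.

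The genes that led the cluster included several secreted or apical products of epithelial cells. The largest mean differences over day 5 and 9, among genes with at least 50 CPM, ran from 2.18 for FCMR down to 1.70 for SPATA18. FCMR, the receptor for the constant part of IgM, had 115, 52.3 and 178 CPM on day 5, 7 and 9 against 19.4, 16.5 and 48.9 CPM. SLC34A2, a sodium-phosphate cotransporter of apical membranes, had 109, 65.4 and 109 CPM against 18.7, 9.15 and 32.03 CPM. SCGB3A2, a secretoglobin best known from airway epithelium, had 60.6, 52.3 and 50.5 CPM against 9.05, 12.6 and 16.4 CPM. Each of these genes was above the rest of its library on all 3 days. The ratio on day 9 was 3.65 (3.47 to 3.84) for FCMR, 3.42 (3.21 to 3.64) for SLC34A2 and 3.08 (2.81 to 3.38) for SCGB3A2, with exact binomial intervals for counting error only.

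WFDC2, a secreted protease inhibitor of the whey acidic protein family, had the most transcripts of the genes ranked highest. WFDC2 stood at 9633, 5425 and 22144 CPM in the cluster and at 1562, 1510.2 and 9441 CPM elsewhere. Both groups were highest on day 9, and the ratio was 6.17 (6.03 to 6.31) on day 5 and 2.35 (2.34 to 2.36) on day 9. ENPP3, an ectoenzyme that cleaves extracellular nucleotides, had 1089, 950.3 and 959.8 CPM against 267, 278 and 327 CPM. LYPD2, a member of the LY6/PLAUR family, had 1070.2, 1295 and 1627 CPM against 264, 527 and 579 CPM. EDN1, the peptide endothelin-1, had 502, 425 and 475 CPM against 93.7, 67.3 and 203 CPM. NR4A1, a nuclear receptor of the immediate early response, had 155, 168 and 184 CPM against 26.5, 36.1 and 67.98 CPM. The complement component C2, the myosin regulator LIMCH1 and the mitochondrial quality control gene SPATA18 had differences of 1.31, 1.52 and 1.56 on day 9. All 15 genes were also above the other cells among the 29 members of day 7.

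**Figure D2:**
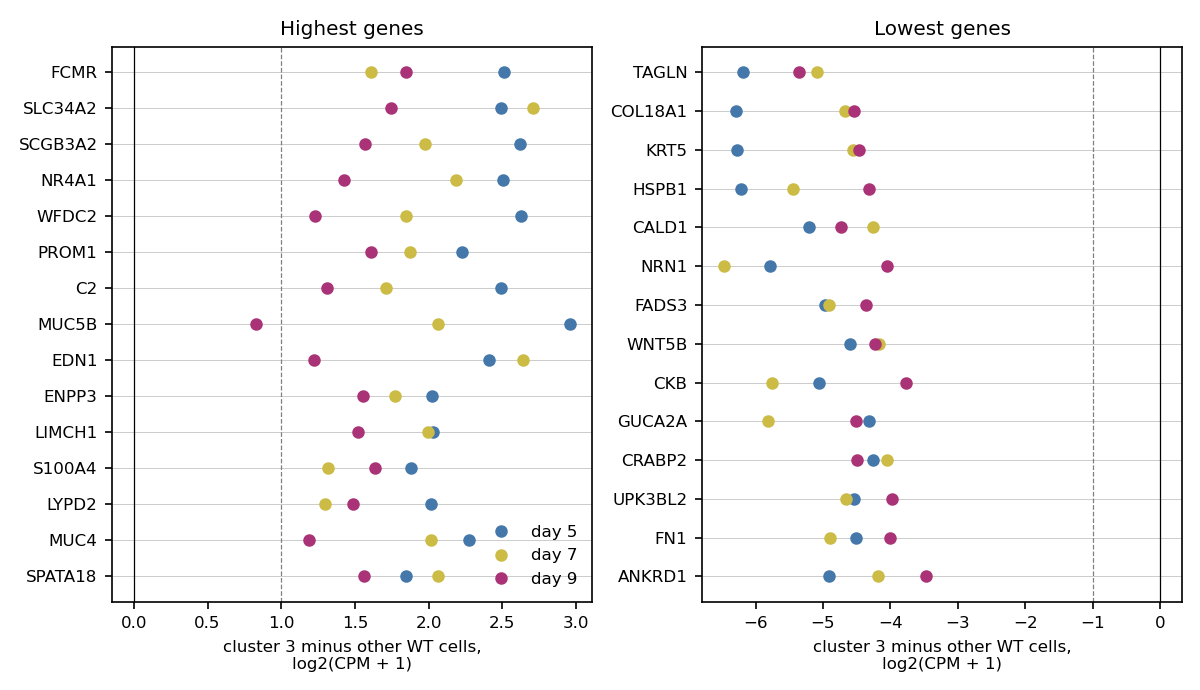
Differences between cluster 3 and the other WT cells of the same library, in log2(CPM + 1), for the 15 genes with the highest (left) and lowest (right) mean difference over day 5 and 9, with 1 of the lowest not shown. Each point is 1 library, solid lines mark no difference and dashed lines 2-fold, and all points of a panel lie on the same side of no difference. MUC5B on day 9 (0.83) is the only point of the left panel short of 2-fold.

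Over all genes, 525 were higher and 1086 lower on day 5 (6.39% and 13.2% of 8211), and 123 were higher and 624 lower on day 9 (1.56% and 7.9% of 7901). On day 7 the 29 members gave 563 higher and 1153 lower genes (6.94% and 14.2% of 8111). Of 7718 genes compared on day 5 and day 9, 107 were higher on both (1.39%) and 486 lower on both (6.3%). Lower genes thus outnumbered higher ones on every day with members. With TMM scaling the day 9 split was 244 higher and 456 lower, so that 34.9% of called genes were higher in place of 16.5%. In the day 5 sum 10 CPM is 8.41 UMIs, and 1044 of the 1086 genes called lower there had an interval of the ratio below 1.

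Genes that were low in the cluster included basal, contractile and matrix genes. TAGLN, the actin-binding protein transgelin, had 2.38, 2.18 and 7.01 CPM in the cluster against 244, 108 and 328 CPM in the other WT cells. COL18A1, a collagen of basement membranes, had 1.19, 4.36 and 7.19 CPM against 171, 136 and 189.6 CPM. KRT5, the keratin of basal cells, had 7.13, 30.5 and 19.2 CPM against 631, 743 and 444 CPM. The day 9 ratios of TAGLN, COL18A1 and KRT5 were 0.0213 (0.0175 to 0.0257), 0.0379 (0.0313 to 0.0456) and 0.0432 (0.0385 to 0.0484). Their day 5 values rest on 2, 1 and 6 UMIs in the cluster.

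The same held for HSPB1, a small heat shock protein, with 8.32, 10.9 and 31.7 CPM against 691, 516 and 654 CPM. On day 9 HSPB1 was also low in ductal clusters 2, 20 and 23, with 48.7, 30.3 and 39.3 CPM. HSPB1 had 2388 CPM in ductal cluster 8 and 2240 CPM in cluster 38. CALD1, the actin regulator caldesmon, had 14.3, 13.1 and 13.5 CPM against 565, 268 and 385 CPM. Low levels were shared with its neighbours, since TAGLN on day 9 had between 0.463 CPM (cluster 1) and 9.72 CPM (cluster 21) in clusters 21, 7, 10, 1, 18 and 16. TAGLN had 1629 CPM in ductal cluster 2 and 1286 CPM in ductal cluster 5, but 6.94 CPM in ductal cluster 17, where cluster 3 had 7.01 CPM. GUCA2A, the peptide guanylin, had 20.2, 4.36 and 8.71 CPM against 422, 302 and 221 CPM. On day 9 GUCA2A was equally low in ductal clusters 2, 5 and 23, with 7.37, 6.69 and 5.66 CPM. It had 280 and 865 CPM in ductal clusters 8 and 17. CRABP2, a carrier of retinoic acid, had 15.5, 15.3 and 19.8 CPM against 314, 269 and 468 CPM. FN1 (fibronectin), WNT5B (a WNT ligand), NRN1, FADS3, CKB, UPK3BL2 and ANKRD1 had differences between -3.48 and -4.37 on day 9. NRN1 on that day had 2.15 CPM in cluster 3, 1.08 CPM in ductal cluster 2 and 88.5 CPM in ductal cluster 8.

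Membrane mucins and secreted defence genes had higher medians than the set of all genes. All 4 membrane mucins compared were called higher on day 5 and 2 of them on day 9, beside 6.39% and 1.56% of all genes, and their median difference was 1.94 and 1.02. Against the other centroacinar cells on day 9 none of the 4 was called, beside 0.26% of all genes higher and 3.24% lower. The day 9 median there was 0.38. On day 5 that comparison had 2 of the 4 higher and none lower, beside 2.74% and 5.68% of all genes. The day 5 median there was 1.13. MUC4 had 251, 312 and 191 CPM on day 5, 7 and 9 against 51.1, 76.5 and 83.3 CPM. MUC13 had 277, 395 and 287 CPM against 75.6, 110.5 and 131 CPM. MUC16 and MUC1 had day 9 differences of 0.91 and 0.83, below the call. These are membrane-anchored glycoproteins of the apical surface, and each was higher in the cluster on all 3 days. All 4 are also among the 11 genes tied to centroacinar progenitors, as are MUC5AC and MUC5B. MUC4 and MUC13 are the 2 genes called higher on day 9 in both lists, so the 2 lists are not separate results. Among gel-forming mucins and their partners, 4 of 7 were higher on day 5 and 1 of 8 on day 9, beside 6.39% and 1.56% of all genes. On day 9, 1 of the 8 was lower, beside 7.9% of all genes. MUC5B had 97.5, 148 and 88.04 CPM against 11.6, 34.6 and 49.1 CPM, and MUC5AC had 87.99, 187 and 161 CPM against 12.01, 21.8 and 118 CPM. For both of these mucins the gap to the other cells was smaller on day 9 than on day 5, and the level in the other cells was higher.

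Secreted defence genes had a median of 2.62 on day 5 and 0.94 on day 9, and 8 of 9 were higher on day 5, beside 6.39% of all genes. With no filter beyond 1 UMI the day 9 median was 0.21. Against the other centroacinar cells 8 of 9 were higher and none lower on day 5, beside 2.74% and 5.68% of all genes. The day 5 median there was 1.85. On day 9, where 1.56% of all genes were higher and 7.9% lower, 4 of 9 were higher and 2 lower, and against the other centroacinar cells 1 was higher and 2 lower, beside 0.26% and 3.24% of all genes in that comparison, with a median of 0.36. SCGB1A1, a secretoglobin of airway club cells, had 79.7, 17.4 and 25.7 CPM against 9.48, 9.91 and 9.30 CPM. DMBT1, a mucosal scavenger receptor, had 10.7, 52.3 and 7.07 CPM against 0.578, 2.65 and 2.16 CPM. BPIFB1, a secreted protein of mucous cells, went the other way, with 1.70 CPM against 46.1 CPM on day 9 and 0 and 0 UMIs in the cluster on day 5 and 7. On day 5 SCGB1A1, DMBT1, SCGB3A2 and CXCL8 were under 10 CPM in the other cells, so they passed the filter only through the cluster. The trefoil factors, small secreted peptides that accompany mucins, were split. TFF3 had 90.4, 857 and 341 CPM against 37.4, 119 and 379.7 CPM, while TFF1 and TFF2 had 3.66 and 9.47 CPM on day 9 against 168 and 396 CPM. The level of TFF3 on day 7 rests on 29 cells.

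Transport genes of the duct had list medians nearer to that of all genes than membrane mucins and secreted defence genes had. CFTR, the chloride and bicarbonate channel, had 42.8, 21.8 and 28.7 CPM against 16.7, 15.8 and 29.7 CPM. The day 9 ratio was 0.966 (0.871 to 1.07), and the day 5 level rests on 36 UMIs. SLC12A2, the basolateral chloride loader NKCC1, had 390.0, 512 and 494 CPM against 163, 211 and 334 CPM. KCNE3, a potassium channel subunit, had 63.02, 65.4 and 75.04 CPM against 29.9, 39.8 and 38.2 CPM, and KCNN4, a calcium-activated potassium channel, had 8.32, 4.36 and 4.35 CPM against 45.9, 50.6 and 40.1 CPM. Of the genes for anion and bicarbonate secretion, 3 of 9 were higher and 1 lower on day 5, and 0 of 8 higher and 1 lower on day 9. The shares over all genes were 6.39% higher and 13.2% lower on day 5, and 1.56% and 7.9% on day 9. Against the other centroacinar cells 0 of 9 anion genes were higher and 1 lower on day 5, and 0 of 8 and 1 on day 9. In that comparison 2.74% of all genes were higher and 5.68% lower on day 5, and 0.26% and 3.24% on day 9. The anion list median was 0.58 and -0.03, and 0.24 and -0.29 against the other centroacinar cells. Among genes of sodium absorption, SCNN1A, a subunit of the epithelial sodium channel, was called higher on both days (326 and 401 CPM against 86.3 and 165 CPM), ATP1B3 was called lower on day 5 (-1.32) and SPINT2 on day 9 (-1.03), with no other call among the 12 and 13 genes compared, and the list median was 0.12 and -0.17. Against the other centroacinar cells 1 of 12 sodium genes was higher and none lower on day 5. None of 12 was called there on day 9.

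Duct and basal genes had a larger share of members called lower than the 13.2% and 7.9% of all genes on day 5 and 9. Duct markers had 5 of 12 members lower on each of day 5 and 9, none higher, and medians of -0.71 and -0.66. ADIRF, an adipogenesis regulatory factor that the study ties to its ductal class, had 156, 238 and 335 CPM against 1666, 1459 and 1663 CPM. CAPG, an actin-capping protein, had 23.8, 39.2 and 28.8 CPM against 425, 415 and 324 CPM. KRT19 and KRT18, keratins of simple epithelium, had differences of -0.96 and -0.44 on day 5 and -0.70 and -0.61 on day 9, and KRT8 had 0.39 and 0.20. The keratins of simple epithelium thus did not pass 2-fold in either direction on day 5 or 9. Basal cell genes had 8 of 11 lower on day 5 and 7 of 11 on day 9 (medians -2.50 and -2.54), among them TP63, the basal transcription factor, with 2.38 and 2.21 CPM against 58.8 and 35.7 CPM. Compared with the other centroacinar cells, 3 of 9 basal cell genes were lower on day 5 and 6 of 11 on day 9, with medians of -0.81 and -1.56, beside 5.68% and 3.24% of all genes in that comparison. Mesenchymal genes had 10 of 11 lower on day 5 and 8 of 10 on day 9 (medians -3.79 and -3.59), and the member called higher was S100A4. With no filter beyond 1 UMI the mesenchymal medians were -1.31 and -1.27, and against the other centroacinar cells they were -1.92 and -2.21. The 14 collagens together summed to 20.2 and 29.6 CPM in the cluster on day 5 and 9, against 418 and 394 CPM in the other WT cells and 83.8 and 141 CPM in the other centroacinar cells.

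Signalling targets held more lower than higher calls, where 6.39% of all genes were higher and 13.2% lower on day 5, and 1.56% and 7.9% on day 9. BMP targets had 5 of 6 lower on day 5 and 4 of 5 on day 9, with medians of -1.80 and -1.32. When set against the other centroacinar cells, 2 of 5 were lower on each day, beside 5.68% and 3.24% of all genes, with medians of -0.12 and -0.54. ID3, a BMP-induced inhibitor of helix-loop-helix factors, had 183, 239.8 and 124 CPM against 1169.9, 1249.8 and 872 CPM, and its relative ID1 had 294, 368 and 205 CPM against 1086, 1074 and 511 CPM. TGF-beta targets had 2 of 16 higher and 7 lower on day 5, and none higher and 8 lower on day 9. Notch genes had 4 of 10 lower on each day and none higher. Against the other centroacinar cells 1 of 8 Notch genes was lower on day 5 and none of 8 on day 9. The Notch medians there were -0.035 and -0.36. In that comparison 7 of 16 TGF-beta targets were lower on each day. The Notch ligands JAG2 and DLL1 had 1.83 and 7.64 CPM on day 9 against 18.9 and 29.2 CPM. WNT targets had 1 of 8 higher and 2 lower on day 5 and 0 of 7 higher and 2 lower on day 9, with medians of -0.77 and -0.92. AXIN2, a negative regulator that WNT induces, had 10.7, 26.2 and 14.96 CPM against 3.75, 5.39 and 8.01 CPM. On day 5 AXIN2 was under 10 CPM in the other cells and passed the filter only through the cluster. DKK1, a secreted inhibitor of WNT signalling, was called lower on day 9, with a difference of -1.80. With no filter beyond 1 UMI the medians on day 5 and 9 were -1.47 and -0.82 for BMP, -0.47 and -0.61 for TGF-beta, and -0.70 and -0.48 for WNT targets.

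Inflammatory and early response genes gave a mixed picture, beside all-gene shares of 6.39% higher and 13.2% lower on day 5 and 1.56% and 7.9% on day 9. Among NF-kB response genes 4 of 13 were higher and 3 lower on day 5, and 0 higher and 3 lower on day 9. Against the other centroacinar cells 1 of 13 was higher and 1 lower on day 5, and none of 12 was called on day 9. In that comparison 2.74% of all genes were higher and 5.68% lower on day 5, and 0.26% and 3.24% on day 9. The chemokine CXCL8 had 22.6 and 19.2 CPM against 3.78 and 9.53 CPM on day 5 and 9, and IL1A, a cytokine of injured epithelium, had 112 and 106 CPM against 35.2 and 58.1 CPM. NFKBIA, the inhibitor that NF-kB induces, had 597 and 474 CPM against 1403 and 1006 CPM. Interferon-stimulated genes had 4 of 7 lower on day 5 and 3 of 8 on day 9. Immediate early genes, which respond within minutes to stimuli and to cell handling, had 6 of 18 higher and 2 lower on day 5 and 1 of 19 higher on day 9. The member called higher on both days was FOSB, with 504, 621 and 526 CPM against 162, 156 and 239 CPM. Against the other centroacinar cells 4 of 18 immediate early genes were higher and none lower on day 5. None of 19 was called there on day 9.

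Metabolic and ribosomal lists differed in the share of members called lower. Glycolysis and hypoxia genes had 8 of 16 lower on day 5 and 4 of 16 on day 9, beside 13.2% and 7.9% of all genes, with medians of -1.14 and -0.63. None of the 15 compared with the other centroacinar cells was called on day 5 or 9 (medians -0.48 and -0.34), where 5.68% and 3.24% of all genes were lower. PKM, pyruvate kinase, had 73.7, 87.2 and 100.3 CPM against 296, 254 and 222 CPM. The 28 ribosomal protein genes compared had medians of -0.76 and -0.43 beside -0.14 and -0.15 over all genes, with 7 lower on day 5 and 1 on day 9, where 13.2% and 7.9% of all genes were. Against the other centroacinar cells none of the 28 was called on day 5 or 9. Their medians there were -0.36 and -0.135, beside -0.04 and -0.128 over all genes. The 16 nuclear-encoded respiratory chain genes had none called on either day and medians of -0.02 and 0.08. The mitochondrial share of UMIs was higher in members throughout, as given above, and its part in these medians was not tested. Lipid and sterol genes had 1 of 15 higher on each day, beside 6.39% and 1.56% of all genes, and 4 lower, beside 13.2% and 7.9%. The median was -0.16 and -0.16. Among the lower members was FDPS, an enzyme of the mevalonate pathway, with 27.3 and 30.5 CPM against 123 and 82.05 CPM.

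Cell cycle genes were low in the cluster on day 5. The summed level of the 20 G2/M genes was 55.9, 76.3 and 64.2 CPM in the cluster and 572, 250 and 78.4 CPM in the other cells on day 5, 7 and 9. The other centroacinar cells summed to 75.9, 95.2 and 73.04 CPM, so the low level of cluster 3 was shared by its class. The S phase genes summed to 84.4 CPM in the cluster on day 5, against 408 CPM in the other WT cells and 166 CPM in the other centroacinar cells.

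Markers of other cell types had low levels where they could be read, and the summed level of the immune list was not below the other WT cells on day 7 and 9. Only 7 of the 17 listed acinar genes have a row in the matrix used here, and most of the digestive enzymes of that list are among the other 10. These 7 genes summed to 0, 0 and 0.442 CPM in the cluster on day 5, 7 and 9, and CPB1 and PTF1A had 0 UMIs in it on day 9. The 17 endocrine genes summed to 9.51, 10.9 and 10.8 CPM against 101, 66.1 and 58.3 CPM, and INS, GCG, CHGA and PDX1 had no UMI in the cluster on day 9. PAX6, a factor of endocrine cells, had 1.19, 2.18 and 3.85 CPM against 68.7, 43.8 and 34.2 CPM. The 8 endothelial genes summed to at most 0.126 CPM in the cluster, and PECAM1 and CDH5 had no UMI on day 9. The 8 immune genes summed to 7.13, 28.3 and 17.0 CPM in the cluster against 7.98, 10.9 and 14.2 CPM in the other WT cells. PTPRC, CD3E, CD79A, LST1, CSF1R and NKG7 had 0 UMIs in the cluster on day 9, so that sum came from CD68 and CD14 alone. The day 7 sum rests on 29 cells. The 9 ciliated cell genes summed to 0, 2.18 and 3.34 CPM in the cluster.

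**Figure D3:**
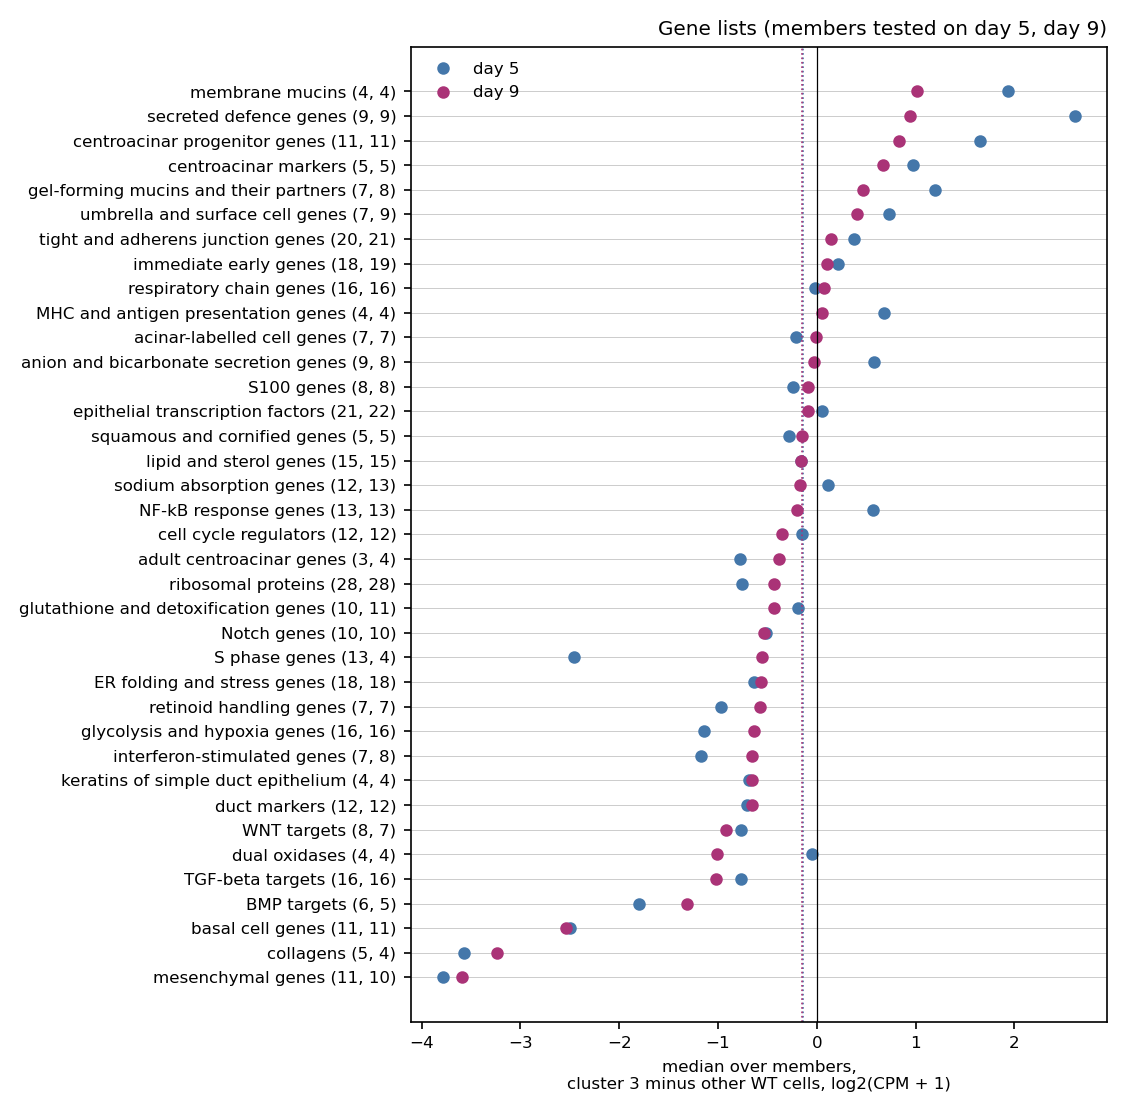
Median over the compared members of each gene list of the difference between cluster 3 and the other WT cells, in log2(CPM + 1), on day 5 (blue) and day 9 (purple), with the number of members compared on each day in brackets. Members had at least 10 CPM in either group, and lists with at least 3 members compared on day 5 and 4 on day 9 are drawn. Dotted lines mark the median over all genes (-0.14 and -0.15) and the solid line no difference. Of the lists drawn, membrane mucins, secreted defence genes and progenitor genes have the highest medians on both days, and mesenchymal genes, collagens and basal cell genes the lowest. The 4 membrane mucins compared are also members of the progenitor list.

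Against the other WT cells of the centroacinar class, far fewer genes stood higher. On day 9 these were 1396 cells, and 20 of 7684 genes (0.26%) were higher in cluster 3 and 249 (3.24%) lower. On day 5, with 708 such cells, 214 of 7798 genes (2.74%) were higher and 443 (5.68%) lower. SCGB3A2 had 50.5 CPM against 18.9 CPM on day 9. S100A4, LYPD2 and FCMR were also among the 20, with 639, 1627 and 178 CPM against 287, 737 and 80.7 CPM. PROM1, with 757 CPM against 406 CPM, was not among them. TMM scaling would add 0.17 to each of these day 9 differences, so calls near 2-fold depend on scaling, that of PROM1 included. The remaining named genes of the 20 were CUNH15orf48, NR4A2, TNNC1, ATP6V1G3, CLCA1, NOSTRIN, RGCC, SLC30A2, UBASH3B and PRSS36, and these, apart from CUNH15orf48, are given here after their values were seen. CLCA1, a secreted protein of mucous cells, had 38.7 against 14.6 CPM, and TNNC1, a troponin subunit, had 34.1 against 10.5 CPM. LOC101676065, a protein-coding gene without a symbol, had the largest difference, with 580 against 168 CPM.

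The genes lowest against the rest of the class included some that were high in a few other clusters. ECRG4, a secreted peptide precursor, had 1.64 CPM against 96.7 CPM on day 9. On that day ECRG4 reached 188 CPM in cluster 29, 513 CPM in cluster 30 and 749 CPM in the ductal cluster 17, and ECRG4 was at most 10.2 CPM in the other clusters of at least 50 cells. TFF2 followed the same pattern, with 9.47 CPM in cluster 3, 741 CPM in cluster 29, 903 CPM in cluster 30 and 3364 CPM in cluster 17. SPP1, the matrix protein osteopontin, had 11.04 CPM against 109 CPM. In clusters 7 and 16, the largest other centroacinar clusters on day 9, ECRG4 had 2.71 and 1.66 CPM and TFF2 had 7.87 and 11.2 CPM, close to cluster 3.

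SOX2, a transcription factor of foregut and airway epithelium, also differed widely between clusters. Cluster 3 had 131 CPM of SOX2 on day 9. For SOX2, clusters 17, 30, 38 and 8 had between 1.80 and 5.10 CPM, and the remaining clusters of at least 50 cells between 80.4 and 170.2 CPM. PAX6, a factor of endocrine cells, had the reverse pattern, with at most 4.17 CPM in the SOX2-expressing clusters other than cluster 29, which had 48.4 CPM, and between 61.2 and 90.1 CPM in the clusters low in SOX2. Cluster 3 stood with the larger, SOX2-expressing side, at 3.85 CPM of PAX6. The choice of these 2 genes was made after their values were seen. In cluster 38, with 5.10 CPM of SOX2 and 61.2 CPM of PAX6, these levels rest on 1 and 12 UMIs.

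Cluster 3 was most like cells with the progenitor name. Over 10512 genes on day 9, its profile had a Pearson correlation of 0.989 with cluster 21, of class centroacinar progenitor, 0.983 with cluster 7, of class centroacinar, and 0.982 with cluster 10, again a progenitor cluster. Over all days the 4 closest of 38 other clusters were the progenitor clusters 21, 10, 18 and 1, with correlations from 0.989 to 0.983, followed by centroacinar cluster 7 at 0.983. The genes of a cluster share cells and library, so these are descriptions. The centroacinar clusters 12 and 30 had 0.903 and 0.904 on day 9, and cluster 38, whose 57 cells had a median of 2737 UMIs, had 0.638. The class name thus covered clusters less like cluster 3 than the closest ductal cluster, cluster 17 at 0.908.

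**Figure D4:**
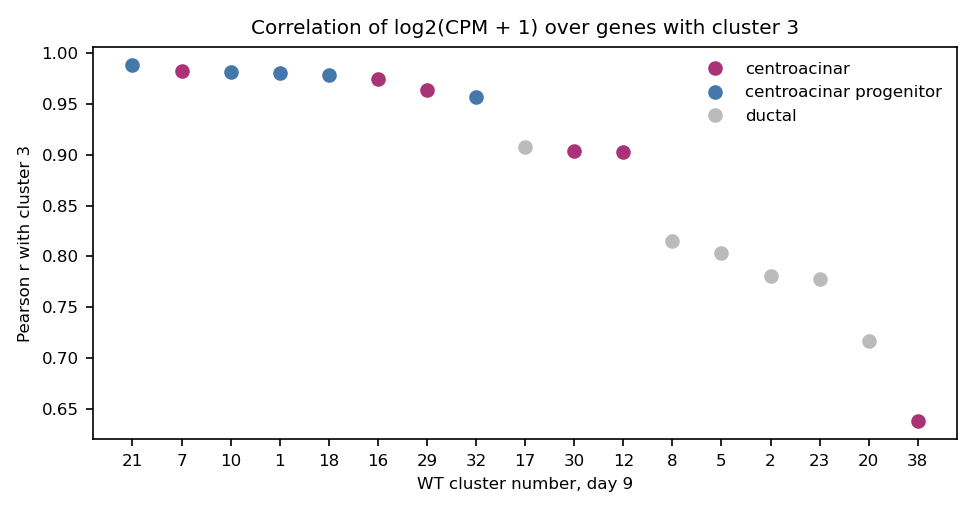
Pearson correlation of log2(CPM + 1) over 10512 genes between cluster 3 and each of the 17 other WT clusters with at least 50 cells on day 9, ordered by correlation, with points coloured by deposited class. Progenitor cluster 21 is closest at 0.989, and centroacinar cluster 38 is farthest at 0.638.

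The difference from the nearest cluster was small and lay in a few genes. Between cluster 3 and cluster 21 on day 9, 7 of 7421 genes were at least 2-fold higher in cluster 3 and 37 lower. KRT4, a keratin of moist stratified surfaces, had 113 CPM in cluster 3 and 53.02 CPM in cluster 21, with a 95% interval of the ratio from 1.88 to 2.40. MUC5B had 88.04 CPM in cluster 3 and 43.8 CPM in cluster 21, and FCMR had 178 CPM in cluster 3 and 95.8 CPM in cluster 21, with differences of 0.99 and 0.89 that fell short of 2-fold. On the other side, ISG20, an interferon-induced exonuclease, had 9.84 CPM in cluster 3 and 148 CPM in cluster 21, and CD74, the invariant chain of MHC class II, had 109 CPM in cluster 3 and 618 CPM in cluster 21. DUOX2, which makes hydrogen peroxide at the apical surface, and its maturation factor DUOXA2 had 15.8 and 34.3 CPM in cluster 3 and 85.95 and 175 CPM in cluster 21.

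Against centroacinar cluster 7, 75 of 7419 genes were higher in cluster 3 and 65 lower. PIGR, the receptor that carries IgA across epithelium, had 69.04 CPM in cluster 3 and 13.7 CPM in cluster 7, and MUC5AC had 161 CPM in cluster 3 and 40.8 CPM in cluster 7. HPGD, which degrades prostaglandins, had 80.8 CPM in cluster 3 and 20.1 CPM in cluster 7. CLU, the secreted chaperone clusterin, was higher in cluster 7, with 442 CPM in cluster 3 and 1401 CPM in cluster 7, as was F3, tissue factor, with 176 CPM in cluster 3 and 505 CPM in cluster 7. Against centroacinar cluster 16, 17 of 7917 genes were higher and 298 lower, where cluster 16 had a median of 10821 UMIs and 14.8% mitochondrial UMIs per cell. RPL39, a ribosomal protein, had 164 CPM in cluster 3 and 79.5 CPM in cluster 16, while WSB1 had 43.9 CPM in cluster 3 and 142 CPM in cluster 16.

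No gene of at least 50 CPM was 2-fold higher in cluster 3 than in every other large cluster on day 9. Among 2669 genes with at least 50 CPM in it, 9 were highest there of the 18 clusters with at least 50 cells, and none of these was 2-fold above the next cluster. For the top-ranked of them, RBM23, an RNA-binding protein, the levels were 63.5 CPM in cluster 3 and 60.8 CPM in cluster 29, with a ratio of 1.04 (0.862 to 1.27). EREG, the growth factor epiregulin, had 233 CPM in cluster 3 and 229.8 CPM in cluster 16. None of the 15 genes highest against the other WT cells was highest in cluster 3, and 10 of them ranked among its first 3 clusters. FCMR, SLC34A2 and PROM1 were highest in cluster 16 (199, 146 and 1237 CPM), and SCGB3A2, NR4A1 and MUC5B in progenitor cluster 18 (109, 306 and 655 CPM).

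**Figure D5:**
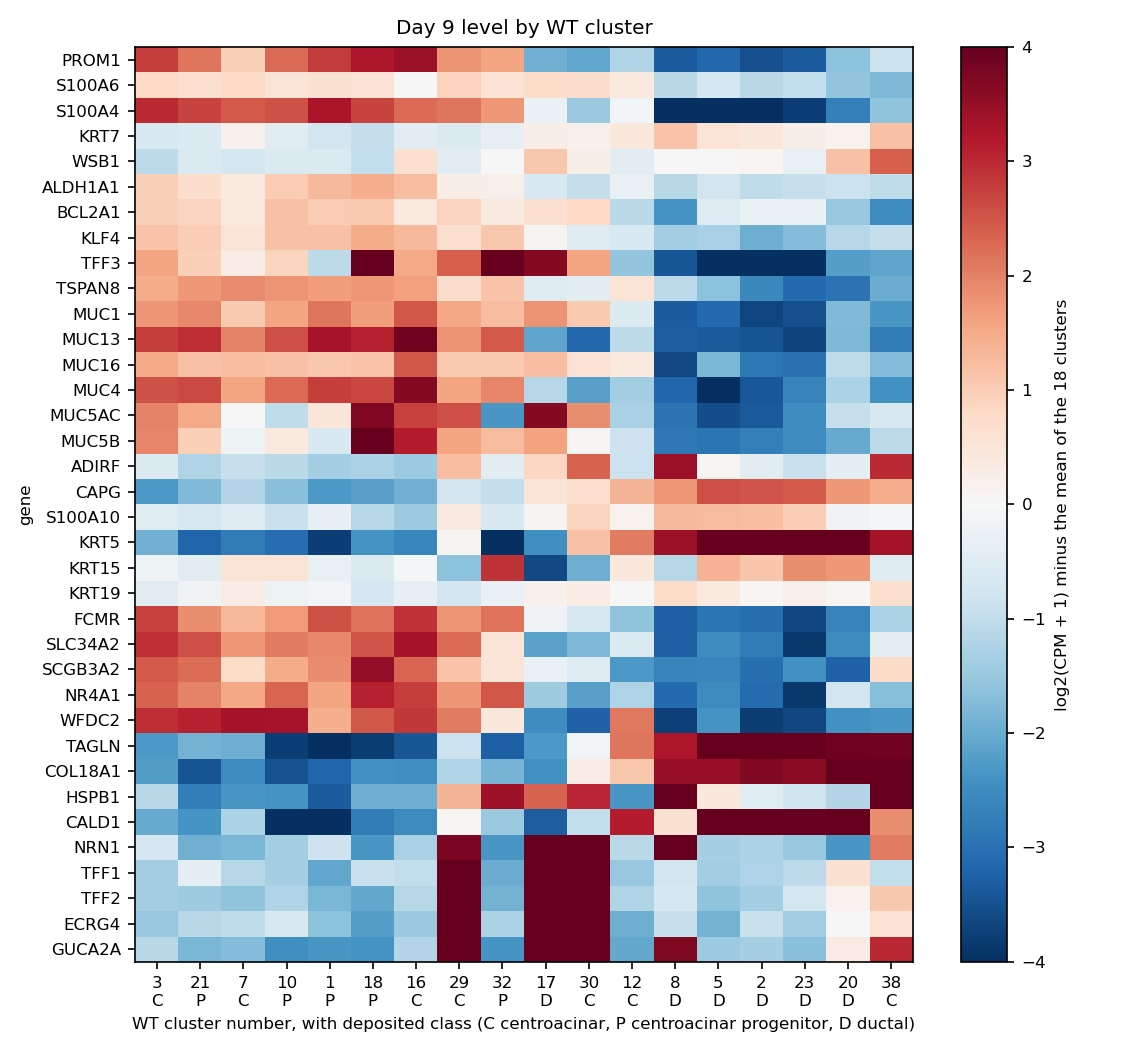
Level of class markers and of genes high or low in cluster 3, as log2(CPM + 1) minus the mean of the 18 WT clusters with at least 50 cells on day 9 (rows are genes, red is above and blue below the mean, limits at 4). Columns are clusters, with cluster 3 first and the others ordered by correlation with it. Cluster 3 resembles its neighbours in nearly every row, and TFF1, TFF2 and ECRG4 are high in clusters 29, 17 and 30.

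Within the cluster, day 9 was set against day 5. Of 7554 genes with at least 10 CPM on either day, 117 (1.55%) were at least 2-fold higher on day 9 and 86 (1.14%) lower. TMM scaling would add 0.12 to each change, and fewer genes were lower with it. Both counts were larger with no filter beyond 1 UMI. TFF3, CD74, KRT4 and ATP8, a subunit of ATP synthase encoded in mitochondria, had changes of 1.90, 1.42, 1.33 and 1.40. CD74 had 40.4, 56.7 and 109 CPM on day 5, 7 and 9, and KRT4 had 44.00, 87.2 and 113 CPM. All 10 genes with the largest increase also increased in the other WT cells, where TFF3 changed by 3.31, CD74 by 2.22 and KRT4 by 0.45. The cluster and the other cells share their libraries, so these changes are not separate observations.

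Among genes of at least 50 CPM, PI3 and SCGB1A1 had the largest decreases from day 5 to day 9. PI3, the protease inhibitor elafin, had 128, 54.5 and 35.5 CPM in the cluster and 24.2, 18.4 and 19.7 CPM in the other cells. The changes of PI3 and SCGB1A1 were -1.83 and -1.60 in the cluster and -0.28 and -0.03 in the other cells, and this gap between groups was not tested. G0S2, an inhibitor of fat breakdown, had 73.7 and 32.7 CPM on day 5 and 9, and 172 and 66.4 CPM elsewhere. The day 5 values of PI3, SCGB1A1 and G0S2 rest on 108, 67 and 62 UMIs from 50 cells.

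The spread among member cells was examined after each cell was thinned to 3000 UMIs, which left out 1 member and 135 other cells on day 9. PROM1 was found in 84.6% (82.2 to 86.9) of members and in 31.1% (29.7 to 32.5) of the other cells, and in 1.56% of cells of cluster 2, the lowest share among clusters. S100A4 was found in 71.8% of members and 27.7% of the others, and ENPP3 in 90.6% of members and 37.1% of the others. MUC5B was found in 18.8% of members and 7.46% of the others, and SCGB3A2 in 12.1% of members and 4.45% of the others, so these products were seen in a minority of members at that depth. Without thinning, MUC5B was found in 42.2% and SCGB3A2 in 41.2% of members, and PROM1 in 99.8% of members and 50.01% of the others. CFTR was found in 8.40% of members and 8.85% of the others, against 2.21% in cluster 5, the lowest. Cluster 5 held only 136 cells on day 9. In summed UMIs of that day it had 21.6 CPM of CFTR, and cluster 8 was lowest, at 9.72 CPM.

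WFDC2 had the highest Fano factor, the variance over the mean, of the 5687 genes with a mean of at least 0.05 UMIs per thinned cell, a measure that also grows with the mean. It was 71.8 in members and 129 in the other WT cells, where independent draws at a constant rate would give 1, and the median over genes was 1.02. Quartiles of WFDC2 on day 9 were 6, 46 and 103 UMIs of 3000 in members, with a 95th percentile of 205 UMIs. In the other WT cells the quartiles were 0, 1 and 25 UMIs. WFDC2 transcripts were thus spread unequally in both groups. S100A6 had a Fano factor of 11.8, with quartiles of 161, 192 and 228 UMIs, and TFF3 had 9.39, with a median of 0, an upper quartile of 1 and a highest cell of 50 UMIs. For KRT7 the Fano factor was 1.64 and for PROM1 1.58.

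The deposited slingshot pseudotime, a score that orders cells along inferred lineages from a starting cluster rich in day 2 cells, placed members on some of the 15 WT lineages. All 1044 members were on lineage 6, 1043 were on lineages 5 and 7, 981 were on lineage 4 and 713 (68.3%) on lineage 3. Of the other WT cells, 38.1% were on lineage 6, 32.1% and 33.9% on lineages 5 and 7, 46.6% on lineage 4 and 44.0% on lineage 3. Lineages 6, 5 and 7 thus set members apart more than lineage 3 did. None was on lineages 8, 9 or 11 to 15, and 7 and 3 were on lineages 2 and 10, respectively. On lineage 5 the median member had a score of 58.1, with a 5th to 95th percentile range of 53.2 to 63.9, where the lineage ran to 82.1 and 93.1% of the other cells on it had lower scores. On lineage 7 the median was 56.5 of 84.4, above 87.9% of other cells, and on lineage 6 it was 53.6 of 77.7, above 72.5%. On lineage 1, which held 632 members (60.5%) and 46.9% of the other WT cells, the median member and the median other cell had the same score of 43.5. The scores were computed from expression of the same cells and are not independent of the clusters.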

How the data were processed

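Droplet single-cell RNA was measured in 4 WT libraries, 1 per day. Per the study's methods and the submitters' processing notes, the authors aligned reads to the ferret assembly ASM1176430v1.1 with Cell Ranger 5.0.1 and deposited UMI counts per gene and cell. They filtered cells by genes and mitochondrial percent, removed doublets, clustered WT and CF cells separately in Seurat (R 4.1.2) and ran slingshot. The deposited cell table gives cluster, class, UMI counts, and mitochondrial percent (%), and a separate deposited table gives the authors' pseudotime score. No doublet caller was rerun. Here, counts were summed over the cells of each group and library and compared as log2(CPM + 1), with Python 3.11.15 and scipy 1.17.1. Scaling alternatives used edgeR 4.0.16 and DESeq2 1.42.0 under R 4.3.3, for factors alone. Clusters were drawn from the genes compared, and each day is 1 library, so no test was made. Intervals at 95% are exact and cover counting error only. The code was checked on simulated counts. Members, gene lists and rules were chosen with earlier results of these data known. Named genes were those with the largest mean difference over day 5 and 9 (15 in each direction against other WT cells, 10 against other centroacinar cells and for the change between days) at 50 CPM or more, with list members as examples. CF libraries and the authors' normalized table were not used here. Printed coordinates are those of the RefSeq table of the same assembly, and sequences were not used here. A few genes that these rules name are not reported here.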

Additional observations from a re-analysis of the deposited data

Results flagged for a closer look

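For TFF3, RPS29, EMP1, DUOXA2 and B2M the difference between cluster 3 and the other WT cells had opposite signs on day 5 and day 9, with counting intervals of the ratio that left out 1 on both days. The differences, in log2(CPM + 1), were 1.25 and -0.16 for TFF3, -0.07 and 0.28 for RPS29, -1.04 and 0.35 for EMP1, 0.52 and -0.71 for DUOXA2, and 0.37 and -0.06 for B2M. These contrasts between days were not tested, since each day is 1 library. With TMM scaling TFF3 had 0.03 and B2M 0.12 on day 9, and RPS29 had 0.01 on day 5, so that the opposite signs of these 3 genes did not remain, while EMP1 (-0.95 and 0.53) and DUOXA2 (0.60 and -0.53) kept them. CFTR (1.31 and -0.05) and DUOX2 (0.13 and -1.19) also had opposite signs, with an interval that held 1 for CFTR on day 9 and for DUOX2 on day 5.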

How the results depend on the processing

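With 1 library per day, no value has a replicate error. No paired analysis was possible because the labels give no replicate numbers to pair and no test was made, and each difference already sets the cluster against cells of its own library. On day 5 the cluster is 50 cells, which limits low genes. The cause of the changes below was not tested. A pseudocount of 5 CPM gave 80 genes higher on day 9. With no filter beyond 1 UMI, 878 were higher and 2333 lower on day 5, 1144 lower on day 9 and 883 lower on both, and between the days 728 were higher and 459 lower on day 9. TMM gave 244 higher on day 9, 204 higher on both days and 47 lower on day 9 than on day 5, and DESeq2 size factors gave 259 and 218 higher on day 9 and on both. Cells of at least 3000 UMIs and at most 10% mitochondrial UMIs gave 334 and 262, and shares of 0.388% on day 5, 0% on day 7 and 9.64% on day 9. Equal weight for each other cluster gave 316 higher on day 5. Against other WT centroacinar cells, 214 were higher and 443 lower on day 5, 20 and 249 on day 9, and 18 and 158 on both. Without day 9, 525 were higher and 1086 lower. Against those cells the day 5 differences of G0S2 (0.19), CCNA2 (0.74), SCNN1G (0.31) and EMP1 (0.042) changed sign. Leaving out clusters 20 and 38, or barcodes shared between libraries, was chosen after seeing the data and gave 119 and 125 genes higher on day 9.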
